A study of Homo sapiens with 9 samples.

Results

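The 9 genes described here encode enzymes of the pentose phosphate pathway and other enzymes that make NADPH, the electron donor for reductive synthesis and for keeping glutathione and thioredoxin reduced. They were chosen by symbol: PGLS, PGD, RPIA, RPE, TKT, TALDO1, ME1, IDH1 and NNT. All 9 were present among the 28307 genes of the deposited count table, and all 9 were among the 15619 genes with enough reads to test.

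The cells were SW620, an established human line derived from a metastasis of a colon adenocarcinoma, labelled wild type in every group and grown in suspension on low-attachment plates in medium with insulin, basic FGF and EGF. Poly(A) RNA was sequenced from 3 untreated cultures, 3 cultures given 120 µM streptomycin (SM) for 48 h and 3 given 120 µM dihydrostreptomycin (DSM) for 48 h. Both compounds are aminoglycoside antibiotics, and DSM differs from SM in that the aldehyde of the streptose ring is reduced to an alcohol. The comparisons ask what each compound did to these transcripts in one cell line, and whether SM and DSM differed at the same dose and time.

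In the oxidative branch of the pathway a glucose-derived lactone is opened and the product is decarboxylated to ribulose phosphate, with NADPH made along the way. The non-oxidative branch interconverts pentose phosphates with sugars of glycolysis, so that cells can make ribose for nucleotides or return carbon to glycolysis. Malic enzyme, cytosolic isocitrate dehydrogenase and the mitochondrial transhydrogenase are further sources of NADPH in dividing cells.

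The libraries held from 39315662 counts (SM replicate 2) to 65562227 counts (untreated replicate 1). The first principal component carried 39.6% of the variance and set the 3 libraries numbered 1 apart from the rest. Over all tested genes, the replicate number accounted for 48.0% of the sum of squares and the group for 19.5%. Libraries with the same number deviated together, with correlations from 0.227 to 0.582 for the 9 same-number pairs. Calls are therefore given without and, where that changes them, with the replicate number as a block. Some fold changes, intervals and medians are given with the block only. The summed level of 12 colon epithelial markers was 11871 to 14932 CPM (the count scaled to a common library size) in untreated, 11348 to 13604 in SM and 11648 to 14613 in DSM libraries. CDX1, GPA33 and KRT20, markers in that list, were near 0 (highest library 0.0190, 0.233 and 0.622 CPM). Most of the sum came from the keratins KRT8, KRT18 and KRT19, with means of 6447, 3485 and 1435 CPM over the 9 libraries. With SM all 10 of these markers that were tested had log2 fold changes below 0 against untreated (median -0.124 with the block). The blocked fit called 2 of them lower, VIL1 and KRT19, against 1.54% of all genes. Against DSM it called 4 lower with SM (VIL1, KRT19, CDH1 and LGR5; list median -0.140), against 2.15% of all genes, and edgeR without the block called none in either comparison. These names were chosen after their values were seen, and the part of these markers in the results was not tested. The 10 markers of other cell types summed to 26.3 to 34.5 CPM, with COL3A1 and DCN at 0 in every library. In bulk RNA, fewer cells of a kind and less RNA per cell cannot be told apart.

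In untreated cells the genes differed widely in level. Per kilobase of merged exon, TKT was highest at 338 CPM (range 336 to 343 over 3 libraries), followed by PGD at 227 CPM (219.6 to 233) and TALDO1 at 151 CPM (144 to 155). PGLS at 34.3 CPM per kilobase (30.5 to 38.7) and IDH1 at 32.5 CPM per kilobase (30.6 to 35.9) overlapped in range. RPIA at 21.7 (19.9 to 22.8), NNT at 20.7 (20.0 to 21.5) and ME1 at 19.5 CPM per kilobase (18.8 to 20.6) overlapped too, and RPE was lowest at 14.7 CPM per kilobase (14.2 to 15.7). The 9 genes together took 0.206% to 0.208% of the counts in untreated libraries. Their share was 0.211% to 0.220% in SM libraries and 0.203% to 0.208% in DSM libraries. The SM shares were all above the untreated ones, and the DSM shares overlapped them. TKT weighed most in this sum, with 66863 of the 135292 counts of the 9 genes in untreated replicate 1. Its mean was 1027 CPM in untreated and 1123 CPM in SM libraries. The share without TKT was not computed, so the higher SM share is not a trait shown for the genes as a group.

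**Figure D1:**
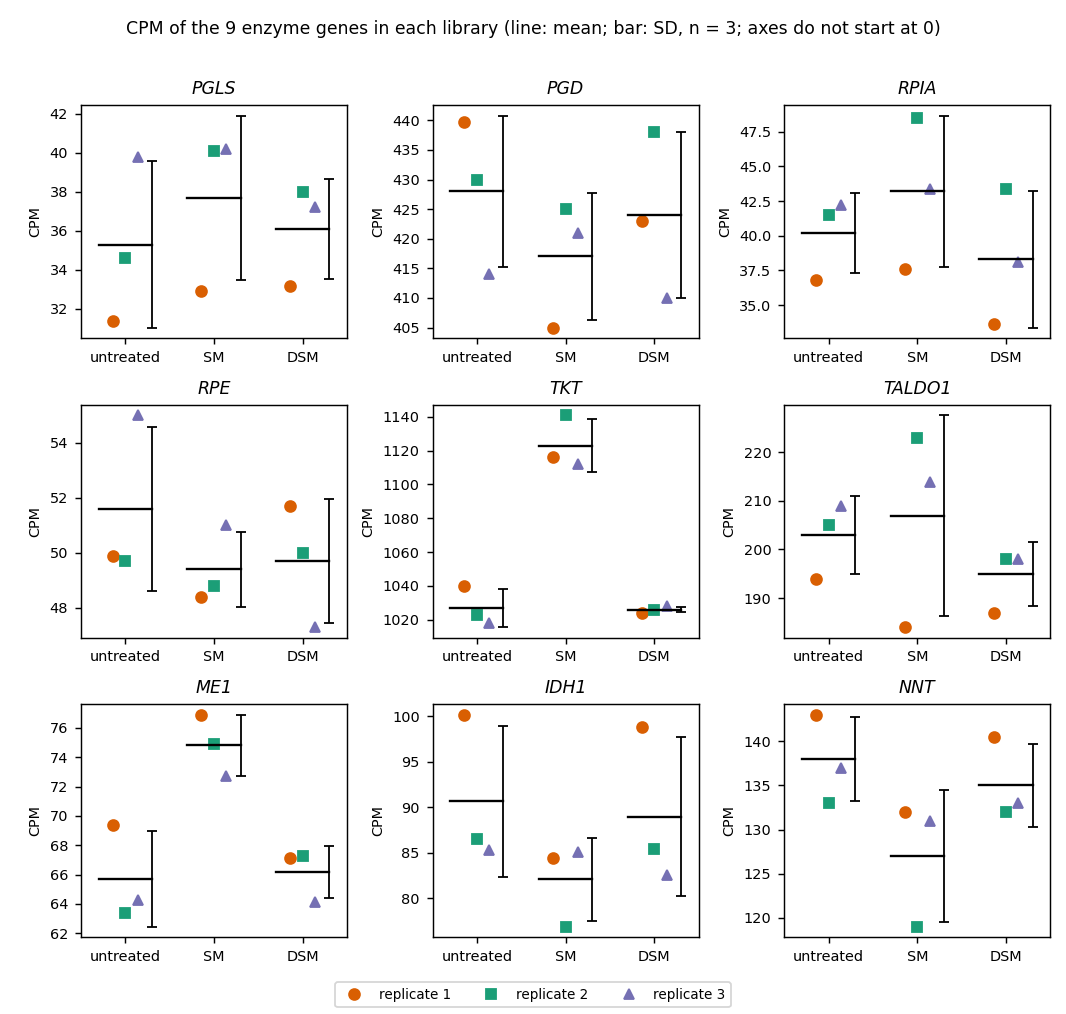
Level in CPM (vertical axis, a separate range for each gene, not starting at 0) of each of the 9 genes in the 3 untreated, 3 SM and 3 DSM libraries; symbols give the replicate number, horizontal lines the mean and bars the SD (n = 3). TKT and ME1 are the genes whose SM libraries all lie above all the others, TKT at 1112 to 1141 CPM and ME1 at 72.7 to 76.9 CPM.

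SM was followed by higher levels of the transketolase and malic enzyme transcripts and by no called change in the other 7 genes. TKT was 1.09-fold and ME1 1.14-fold the untreated level, and both lay above every untreated library. In edgeR these calls needed the replicate number in the model. Without it edgeR called 0 of the 9 genes at an adjusted p below 0.05, against 0.0192% of all tested genes (3 genes), although 2 of the 9 had an unadjusted p below 0.05 (2.34% of all genes did). With it edgeR called 2 of the 9 higher, against 1.20% of all genes, and 0 lower, against 1.54%.

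TKT encodes transketolase, which moves 2-carbon units between sugar phosphates in the non-oxidative branch. Its level was 1039.8, 1023 and 1018 CPM in untreated replicates 1, 2 and 3, 1116, 1141 and 1112 CPM in the SM replicates, and 1024, 1026 and 1028 CPM in the DSM replicates. The 3 SM libraries were the highest of the 9, and untreated and DSM libraries overlapped. Against untreated cells the log2 fold change with SM was 0.13 (SE 0.03, 95% interval 0.06 to 0.19, higher in 3 of 3 pairs, edgeR adjusted p = 0.0241 with the block). Without the block edgeR gave the same 0.13 with an adjusted p of 1.00. DESeq2 without the block gave an adjusted p of 0.0489. The blocked call ended when any 1 of the 3 untreated libraries was left out (edgeR adjusted p = 0.143, 0.229 and 0.231 without replicates 1, 2 and 3), and without SM replicate 2 (0.0565) or SM replicate 3 (0.0642), while the log2 fold change stayed between 0.12 and 0.14.

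ME1 encodes the cytosolic malic enzyme, which turns malate into pyruvate and makes NADPH. Untreated replicates 1, 2 and 3 had 69.4, 63.4 and 64.3 CPM, the SM replicates 76.9, 74.9 and 72.7 CPM, and the DSM replicates 67.1, 67.3 and 64.1 CPM. Again the SM libraries were the highest 3 of 9, while DSM libraries lay within the untreated range. With SM the log2 fold change was 0.19 (SE 0.04, 95% interval 0.11 to 0.26, higher in 3 of 3 pairs, edgeR adjusted p = 0.00386 with the block and 1.00 without it). The blocked call ended without untreated replicate 2 (adjusted p = 0.107) or untreated replicate 3 (0.0507). The promoter of ME1 is shown beside that of TKT because these are the genes called with SM in this group. Both are RefSeq sequences of the 250 bases before the annotated start (GRCh38.p14), ME1 at chr6:83431052-83431301 and TKT at chr3:53256023-53256272, both on the minus strand and read 5′ to 3′. The capitals mark a match to TGACNNNGC, the core of the antioxidant response element bound by NRF2, searched on both strands.
ME1: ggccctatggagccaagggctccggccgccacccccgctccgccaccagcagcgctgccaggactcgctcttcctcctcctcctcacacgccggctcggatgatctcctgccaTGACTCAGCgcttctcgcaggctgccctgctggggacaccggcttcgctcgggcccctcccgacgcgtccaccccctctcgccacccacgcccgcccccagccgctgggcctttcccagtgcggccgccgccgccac
TKT: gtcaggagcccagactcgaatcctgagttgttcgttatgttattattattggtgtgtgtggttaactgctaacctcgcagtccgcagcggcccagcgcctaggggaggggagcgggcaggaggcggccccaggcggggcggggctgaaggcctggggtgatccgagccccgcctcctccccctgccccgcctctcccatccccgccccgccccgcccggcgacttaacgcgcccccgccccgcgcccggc
The ME1 match lies 137 bases before the start, and the TKT window holds no match. The 9 genes have 11 such windows in the table, 2 each for IDH1 and NNT. A match was present in 4 of the 11 (36.4%), against 11.8% of the 16720 windows of tested genes and 10.9% of all 35116 windows. The other 3 matches were in IDH1 (1 of its 2 windows), PGD and RPE, none of which was called with SM. A match says only that these letters occur there, and binding was not measured. ME1 itself spans chromosome 6 from 83210402 to 83431051 and TKT chromosome 3 from 53224712 to 53256022.

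IDH1, the cytosolic isocitrate dehydrogenase that makes NADPH, gave lower values with SM that did not pass the test. Its level was 100.2, 86.5 and 85.3 CPM in untreated replicates 1, 2 and 3, 84.4, 76.9 and 85.1 CPM in SM replicates, and 98.9, 85.4 and 82.6 CPM in DSM replicates. Every SM library lay below every untreated library, by as little as 85.1 against 85.3 CPM. The log2 fold change was -0.14 (SE 0.08, 95% interval -0.33 to 0.04, edgeR adjusted p = 1.00) without the block and -0.14 with it (SE 0.04, adjusted p = 0.0825). By pair the log2 differences were -0.25, -0.17 and 0.00. Leaving out SM replicate 3 made it a call (-0.21, edgeR adjusted p = 0.00518 with the block). The upstream of its 2 RefSeq windows, chr2:208255072-208255321 on the minus strand, is shown because it holds a match to the same motif. The match lies 143 bases before the start, and its part in the level of IDH1 was not tested.
IDH1: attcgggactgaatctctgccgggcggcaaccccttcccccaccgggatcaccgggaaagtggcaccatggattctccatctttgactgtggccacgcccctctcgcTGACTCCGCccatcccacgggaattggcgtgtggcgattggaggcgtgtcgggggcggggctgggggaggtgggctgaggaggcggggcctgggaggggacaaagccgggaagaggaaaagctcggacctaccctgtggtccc
The 2 matched stretches, TGACTCAGC in ME1 and TGACTCCGC in IDH1, share the fixed letters of the motif because the search required them.

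NNT, the nicotinamide nucleotide transhydrogenase of the inner mitochondrial membrane, uses the proton gradient to make NADPH from NADH. Untreated replicates 1, 2 and 3 had 143, 133 and 137 CPM, SM replicates 132, 119 and 131 CPM, and DSM replicates 140.5, 132 and 133 CPM. All SM libraries were below all untreated libraries, and SM replicate 2 was the lowest of the 9. The log2 fold change with SM was -0.12 (95% interval -0.23 to 0.00, edgeR adjusted p = 1.00; adjusted p = 0.0630 with the block), lower in 3 of 3 pairs. Without SM replicate 3 the blocked fit called it (-0.14, edgeR adjusted p = 0.0407), and without SM replicate 2 it gave -0.09 (0.176). Neither NNT window, chr5:43602425-43602674 or chr5:43602930-43603179 on the plus strand, held a match to the motif. NNT-AS1, an antisense gene whose exons share 113 bases with those of NNT, had 19.5 to 22.3 CPM and was not called; whether counting used the strand is not given in the sources used here.

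PGLS and PGD stand in the oxidative branch, PGLS as the lactonase and PGD as the dehydrogenase that yields NADPH and ribulose phosphate. PGLS was 31.4, 34.6 and 39.8 CPM in untreated replicates 1, 2 and 3, 32.9, 40.1 and 40.2 CPM with SM and 33.2, 38.0 and 37.2 CPM with DSM. PGD was 439.7, 430.0 and 414 CPM untreated, 405, 425 and 421 CPM with SM and 423, 438 and 410.0 CPM with DSM. The groups of both genes overlapped. The log2 fold change with SM was 0.10 for PGLS (95% interval -0.14 to 0.33) and -0.04 for PGD (95% interval -0.13 to 0.06). PGLS libraries numbered 1 were the lowest of each group, and the replicate number held 77.8% of the sum of squares of its log2 CPM, against 9.35% for the group. Of the PGLS exon bases, 25.4% lie opposite AC010618.3, which is not among the counted genes.

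RPIA, RPE and TALDO1 belong with TKT to the non-oxidative branch. RPIA, the ribose phosphate isomerase, had 36.8, 41.5 and 42.2 CPM in untreated replicates 1, 2 and 3, 37.6, 48.5 and 43.4 CPM with SM, and 33.6, 43.4 and 38.1 CPM with DSM. TALDO1, the transaldolase, had 194, 205 and 209 CPM untreated, 184, 223 and 214 CPM with SM, and 187, 198 and 198 CPM with DSM. For both, replicate 1 was the lowest of its group in all 3 groups, and the groups overlapped. RPE, the ribulose phosphate epimerase, had 49.9, 49.7 and 55.0 CPM untreated, 48.4, 48.8 and 51.0 CPM with SM and 47.3 to 51.7 CPM with DSM (highest in replicate 1, lowest in replicate 3), with overlapping groups. With SM the log2 fold changes were 0.10 for RPIA (95% interval -0.15 to 0.35), 0.03 for TALDO1 (-0.12 to 0.18) and -0.06 for RPE (-0.19 to 0.07), none called. TALDO1 turned to -0.03 without SM replicate 2. RPE shares 837 exon bases with KANSL1L on the opposite strand, which had 2.72 to 4.68 CPM and was not called.

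Read as a list, the 9 genes had a median log2 fold change of 0.024 with SM in the blocked fit, and all tested genes -0.001. The median size of the change, sign aside, was 0.097 for the 9 genes and 0.068 for all genes. The SM and untreated libraries did not overlap for 4 of the 9 genes, against 6.74% of all tested genes. TKT and ME1 were the 2 with higher SM libraries, against 3.28% of all genes, and IDH1 and NNT the 2 with lower ones, against 3.46%. The direction was the same in 3 of 3 pairs for 7 of the 9, against 36.3% of all genes. The 7 include IDH1 and PGLS, whose log2 differences in replicate 3 were 0.00 and 0.01. The list was chosen with earlier results of these data known, so shares set against all genes describe it and are no test. In the blocked fit the intervals reached a median of 0.076 to each side for the 9 genes and 0.124 for all genes. Genes with intervals of like width were not compared.

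DSM at the same dose and time gave no called change in any of the 9 genes. edgeR called 0 of 9 with and without the block, as it called 0 of all tested genes (0%), and 0 of the 9 had an unadjusted p below 0.05, against 0.659% of all genes without the block and 4.16% with it. DESeq2 also called 0 of the 9. No member had DSM libraries apart from the untreated ones, against 4.42% of all genes. Without the block TKT had a log2 fold change of 0.00 (95% interval -0.08 to 0.08) and ME1 of 0.01 (-0.10 to 0.12). The SM values of 0.13 and 0.19 lie above these DSM intervals. The SM intervals without the block, 0.05 to 0.21 for TKT and 0.08 to 0.30 for ME1, overlap them. IDH1 had -0.03 (-0.21 to 0.16 without the block, -0.11 to 0.06 with it) and NNT -0.03 (-0.15 to 0.09 without, -0.10 to 0.04 with it). The SM values of -0.14 and -0.12 lie inside the intervals without the block and outside those with it. A value outside an interval is no test of a difference, and the direct comparison of SM with DSM is given below. The other 5 ranged from -0.07 for RPIA to 0.03 for PGLS, and TALDO1, IDH1 and NNT were lower in 3 of 3 pairs, a pattern shared by 15.1% of all genes. The SM and DSM comparisons share the untreated libraries, so their values are not independent.

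**Figure D2:**
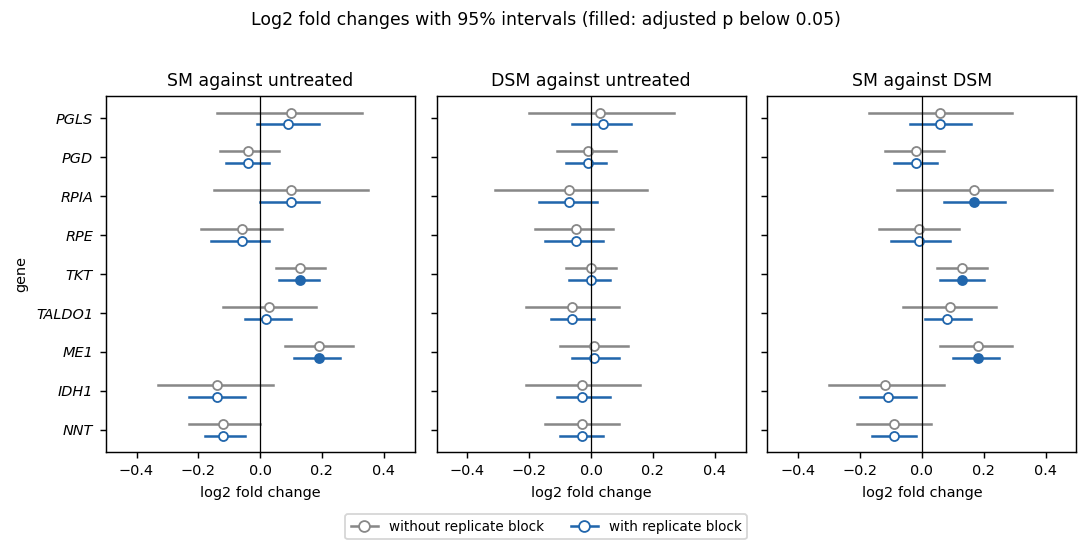
Log2 fold change (horizontal axis) of each gene for SM against untreated, DSM against untreated and SM against DSM, with 95% intervals; grey is the fit without and blue the fit with the replicate block, and filled points have an adjusted p below 0.05. Filled points are TKT and ME1 for SM against untreated, and RPIA, TKT and ME1 for SM against DSM, where RPIA reaches 0.17.

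Set directly against DSM, SM gave higher TKT, ME1 and RPIA. With the block edgeR called 3 of the 9 higher, against 1.73% of all genes, and 0 lower, against 2.15%. Without it edgeR called 0 of 9 and 0 of all genes (0%), while 2 of the 9 had an unadjusted p below 0.05 (2.54% of all genes did) and DESeq2 called 1, TKT (adjusted p = 0.0488). This is 1 pair of compounds, compared at 1 dose and 1 time. ME1 was 1.13-fold higher with SM, a log2 difference of 0.18 (SE 0.04, 95% interval 0.10 to 0.25, edgeR adjusted p = 0.00550 with the block). TKT differed by 0.13 (SE 0.03, 0.06 to 0.20, adjusted p = 0.0186). Both genes were higher in 3 of 3 pairs, with no overlap between SM and DSM libraries.

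RPIA differed by 0.17 (SE 0.05, 95% interval 0.07 to 0.27, edgeR adjusted p = 0.0413 with the block and 1.00 without). Its libraries overlapped between the compounds, and the differences by pair were 0.16, 0.16 and 0.19, so the call rests on the pairing. Replicate number held 69.6% of its sum of squares and the group 21.6%. Its call ended without untreated replicate 1 (adjusted p = 0.0632), untreated replicate 3 (0.0719), SM replicate 2 (0.168), SM replicate 3 (0.106), DSM replicate 1 (0.143) or DSM replicate 3 (0.242), and with DESeq2 in the blocked design (0.0624). ME1 lost its call against DSM without DSM replicate 1 (edgeR adjusted p = 0.0509). TKT lost its call without any 1 of 7 libraries, namely untreated replicates 1 (0.0528) and 3 (0.0548), SM replicates 2 (0.0554) and 3 (0.0561), and DSM replicates 1 (0.0739), 2 (0.113) and 3 (0.0533).

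The other 6 genes were not called between SM and DSM. The differences with their 95% intervals without the block were 0.06 for PGLS (-0.17 to 0.29), -0.02 for PGD (-0.12 to 0.07), -0.01 for RPE (-0.14 to 0.12) and 0.09 for TALDO1 (-0.06 to 0.24). IDH1 differed by -0.12 (-0.30 to 0.07) and NNT by -0.09 (-0.21 to 0.03), with adjusted p values of 0.172 and 0.169 in the blocked edgeR fit. NNT was lower with SM in every library than in any DSM library, but SM replicate 1 and DSM replicate 2 both rounded to 132 CPM. In all, 3 of the 9 genes did not overlap between the compounds, against 6.56% of all genes. Without SM replicate 3 the blocked fit called IDH1 lower (-0.19, edgeR adjusted p = 0.0127), and without SM replicate 1 it called TALDO1 higher (0.14, adjusted p = 0.0236). The median over the 9 genes was 0.058 with the block, and 0.000 over all genes.

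**Figure D3:**
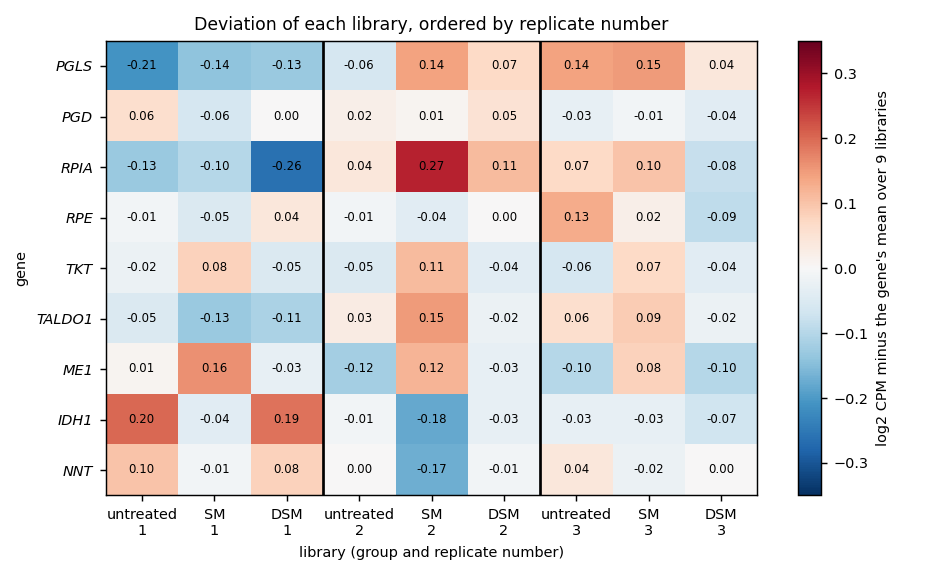
Deviation of each library from the gene's mean over 9 libraries in log2 CPM (colour and printed value), with the genes as rows and the libraries ordered by replicate number. The libraries numbered 1 are low for PGLS, RPIA and TALDO1, and SM replicate 2 is farthest from the mean for RPIA (0.27), NNT (-0.17) and TALDO1 (0.15).

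The genes varied in different ways across the 9 libraries. For TKT the group held 96.1% of the sum of squares and for ME1 80.6%, where PGD had 16.3%, TALDO1 16.9% and RPE 20.5%. The replicate number held more than the group for PGLS, PGD, RPIA, TALDO1 and IDH1 (51.9% against 28.0% for IDH1), and for RPE the rest held 71.0%. Over the 9 libraries the log2 CPM of TKT and ME1 correlated at 0.92, those of IDH1 and NNT at 0.88, of RPIA and TALDO1 at 0.87, and of PGLS and TALDO1 at 0.81. RPIA and NNT correlated at -0.79. These are descriptions over 9 libraries that share treatment, replicate number and depth. SM replicate 2, the shallowest library, was the highest of the 9 for TKT, RPIA and TALDO1 and the lowest for NNT and IDH1, and the part of depth in this was not tested.

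Among the 15565 tested genes outside the 9 and the other gene lists used here, the transcripts most like TKT over the 9 libraries were AKR1C3 (Pearson r 0.971), HTATIP2 (0.967) and PI4KAP2 (0.967). The most like ME1 were UGDH (0.931), ALDH3A1 (0.918) and LOC101927136 (0.910). AKR1C3 and ALDH3A1 encode enzymes that reduce or oxidise carbonyl compounds, and UGDH makes the sugar donor for glucuronidation. Functions are given for only some of the genes named here, and a shared role was not tested. The closest to NNT was STX12 (0.980), to IDH1 ARNTL2 (0.979), to RPIA SNU13 (0.979) and to TALDO1 SLFN5 (0.978). These are the highest values out of many and carry no test.

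Other genes of NADPH metabolism, taken from 3 lists, are given as counts of calls in the blocked edgeR fit, in which 1.20% of all tested genes were called higher and 1.54% lower with SM. On the pentose phosphate side, 7 of 10 listed genes were tested, and with SM 0 were called higher and 1 lower. That gene was H6PD, which runs the first oxidative steps inside the endoplasmic reticulum, at 50.7 CPM ± 5.40 untreated and 43.7 CPM ± 7.17 with SM (SD, n = 3), a log2 fold change of -0.22 (SE 0.05, edgeR adjusted p = 0.0122). Among 11 tested of 13 listed genes of NADPH production and NADP supply, 2 were called higher and 0 lower (1.20% and 1.54% of all genes). MTHFD2, a mitochondrial folate dehydrogenase, had a log2 fold change of 0.19 (SE 0.04, edgeR adjusted p = 0.0201). ALDH1L2, which makes NADPH in mitochondria from formyl folate, had 0.38 (SE 0.10, edgeR adjusted p = 0.0445), at 1.38, 5.71 and 6.64 CPM in untreated and 1.88, 7.49 and 8.43 CPM in SM replicates 1, 2 and 3. Its libraries numbered 1 were low in both groups, and the groups overlapped.

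Of the NADPH users, 11 of 12 were tested, and with SM 3 were called higher and 2 lower in the blocked fit, against 1.20% and 1.54% of all genes. TXNRD1, the cytosolic thioredoxin reductase, was 407, 437 and 395 CPM in untreated, 499, 572 and 539 CPM in SM and 403, 448 and 393 CPM in DSM replicates 1, 2 and 3. Every SM library lay above every other library. Its log2 fold change was 0.38 (SE 0.03, edgeR adjusted p = 2.79e-07). GSR, the glutathione reductase, had 0.13 (SE 0.03, edgeR adjusted p = 0.0296), and CBR1, a carbonyl reductase, 0.18 (SE 0.05, adjusted p = 0.0472). FASN, the fatty acid synthase, fell by 0.15 on the log2 scale (SE 0.03, edgeR adjusted p = 0.00828). SQLE, the squalene epoxidase of sterol synthesis, fell by 0.33 (SE 0.04, adjusted p = 2.77e-05). Without the block and with all 9 libraries, edgeR called none of these genes in any of the 3 comparisons, while DESeq2 called TXNRD1 for SM against untreated (adjusted p = 0.00187) and against DSM (0.00310). Without the libraries numbered 1, unblocked edgeR called TXNRD1 (adjusted p = 0.00796) and SQLE (0.00326) for SM against untreated. In that fit it called TXNRD1 (0.00602), SQLE (0.00102) and MTHFD2 (0.00171) against DSM. TXNRD1 and SQLE kept their blocked calls without each of the 9 libraries in turn. H6PD, MTHFD2, ALDH1L2 and CBR1 lost them when 1 untreated library or 1 of SM replicates 2 and 3 was left out, GSR when 1 untreated library or SM replicate 2 was, and FASN when 1 untreated library was (highest edgeR adjusted p 0.341, for ALDH1L2). With DESeq2 and the block MTHFD2 (adjusted p = 0.169), ALDH1L2 (0.103) and CBR1 (0.0609) were not called, nor were ALDH1L2 (0.201) and CBR1 (0.0568) with limma voom and the block. Without the libraries numbered 1 the blocked edgeR fit did not call ALDH1L2 (adjusted p = 0.0807), GSR (0.0686) or FASN (0.0502).

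Against DSM the blocked fit called SM lower for H6PD (-0.18, edgeR adjusted p = 0.0350) and higher for MTHFD2 (0.26, adjusted p = 0.00125) and ALDH1L2 (0.47, adjusted p = 0.00985). Among the users it called GSR (0.15, adjusted p = 0.00919) and TXNRD1 (0.37, adjusted p = 2.97e-07) higher and SQLE (-0.34, adjusted p = 1.93e-05) lower. DSM against untreated called 0 genes of the 3 lists. TXNRD1 had a log2 fold change of 0.00 there (95% interval -0.07 to 0.08) and FASN -0.06 (-0.12 to 0.01). H6PD lost its call against DSM without 7 of the 9 libraries (all but SM replicate 1 and DSM replicate 1), MTHFD2 without SM replicate 2, ALDH1L2 without SM replicate 3 or DSM replicate 3, and GSR without SM replicate 2 or DSM replicate 2. H6PD also lost it with library totals in the blocked fit (adjusted p = 0.0510), and ALDH1L2 with limma voom and the block (0.0742).

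**Figure D4:**
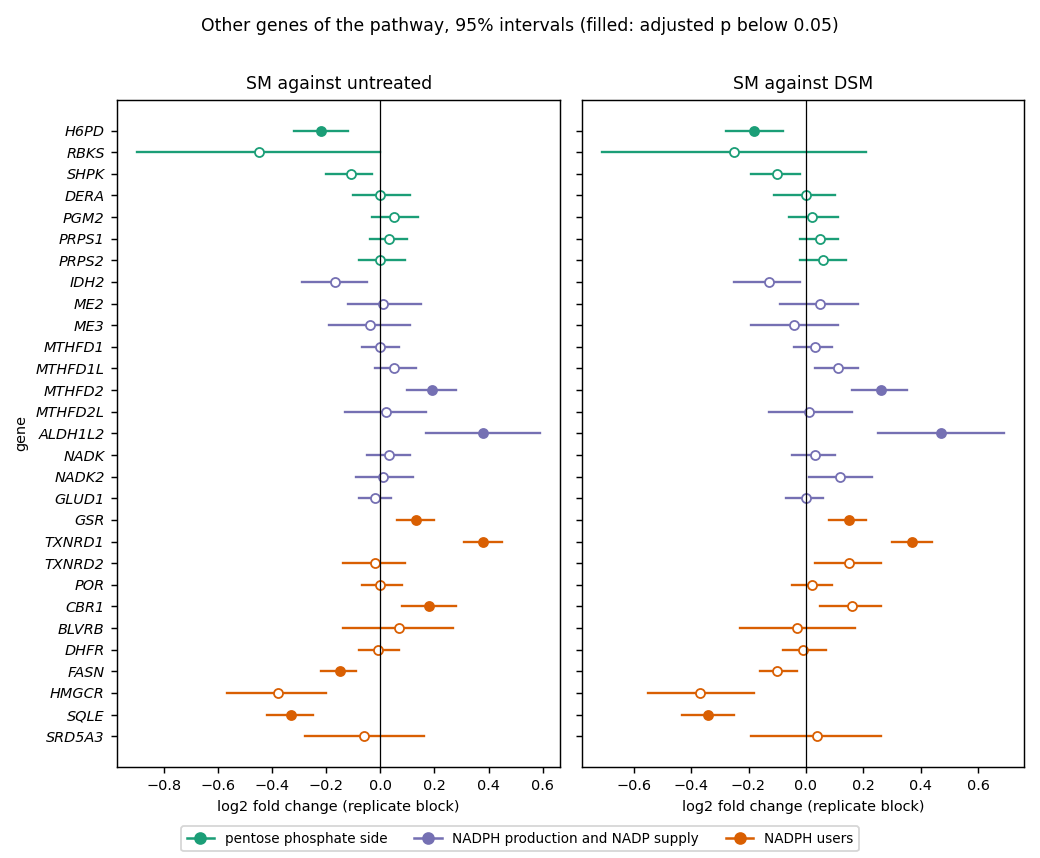
Log2 fold change with 95% interval (horizontal axis, replicate block) of the other tested genes of the pathway, for SM against untreated and SM against DSM, coloured by list; filled points have an adjusted p below 0.05. TXNRD1 at 0.38 and SQLE at -0.33 stand on opposite sides among the NADPH users.

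The possible copies named here took almost no counts, and counts of other copies are not given. RPEL1, TKTL1 and TKTL2, which resemble RPE and TKT, had 0 to 2 counts in each library, and IDH1-AS1 had 0 to 12.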

How the data were processed

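The authors deposited whole-number read counts per gene for 9 libraries, made with TRIzol RNA and a NuGEN Universal Plus mRNA-seq kit per the labels' protocols. Per the submitters' processing notes the build was hg38, and the tools named are TopHat2 2.1.1, featureCounts 2.0.0, DESeq2 1.26.0, cutadapt 3.4, bcl2fastq 2.20.0.422, MultiQC 1.10.1 and FastQC 0.11.9. The gene annotation, strand setting and treatment of reads matching several places were not given in the sources used here. A normalised version of the same table was not used.

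From these counts, genes passing edgeR's filterByExpr (minimum count 10, minimum total 15) were kept, scaled by TMM and tested with edgeR 4.0.16 (R 4.3.3) in a robust quasi-likelihood fit of all 9 libraries by group. Calls had a Benjamini-Hochberg adjusted p below 0.05 over all tested genes. CPM is the count over the TMM-scaled library size, and log2 CPM used a prior count of 2. The fit was repeated with the replicate number as a block, since same-number libraries deviated together (r 0.227 to 0.582; different numbers -0.404 to 0.161). The design text calls the replicates biological. Alternatives used other scalings, filters, DESeq2 1.42.0, limma 3.58.1 voom and left-out libraries. Scripts were tested on simulated data, in which the planted changes were larger than any called here among the 9 genes. Recovery of changes as small as those was not tested.

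The 9 genes and the other lists were chosen with earlier results of these data known. Of the lists, called genes were named, up to 8 per comparison, and for each of the 9 genes up to 3 of the genes with the most similar log2 CPM. Exon lengths and overlaps come from GENCODE v29, positions and promoters from RefSeq (GRCh38.p14). Taken over many genes together, total counts of 39315662 to 65562227 limited precision less than the spread between replicates. That spread includes the replicate number, and single genes were not examined in this respect.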

Additional observations from a re-analysis of the deposited data

How the results depend on the processing

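The replicate block decided the counts of calls. For SM against untreated, edgeR called 3 genes and 0 of the 9 enzyme genes without it, 428 and 2 with it, 385 and 2 with DESeq2 and the block, and 437 and 2 with limma voom and the block. For SM against DSM the counts were 0 and 0 without it, 606 and 3 with it, 510 and 2 with DESeq2 and the block, and 610 and 3 with limma voom and the block. Without the block, DESeq2 called 14 genes and 1 enzyme gene for SM against untreated and 11 and 1 for SM against DSM, no filter gave 5 and 3 genes, the libraries numbered 2 and 3 alone gave 73 and 186, and the fit of the 2 groups alone gave 0 for SM against untreated. Leaving out 1 library gave 0 to 3 genes for SM against untreated without the block. With the block it gave 149 to 569 genes and 0 to 3 enzyme genes for SM against untreated, and 265 to 846 genes and 0 to 4 enzyme genes for SM against DSM. In an alternative chosen after seeing the data, the block without the libraries numbered 1 called 1 enzyme gene (ME1) for SM against untreated, 0 for SM against DSM, and 1 gene for DSM against untreated; with fewer samples the adjusted p of TKT was 0.0549 and 0.0548. The block with library totals or DESeq2 size factors, also added then, changed no call of the 9 genes.

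Among the 9 genes, no value called in the blocked fit changed direction under the alternatives run. Leaving out 1 library gave -0.03 to 0.11 for TALDO1 with SM (-0.02 to 0.08 with the block). For DSM against untreated it gave -0.04 to 0.13 for PGLS, -0.04 to 0.01 for PGD, -0.11 to 0.05 for IDH1, -0.01 to 0.05 for ME1 and -0.16 to 0.02 for RPIA, and with the block -0.01 to 0.09 for PGLS, -0.03 to 0.02 for PGD, -0.06 to 0.02 for IDH1, -0.02 to 0.04 for ME1 and -0.10 to 0.02 for RPE. For SM against DSM it gave -0.04 to 0.02 for RPE, and with the block -0.08 to 0.04 for RPE and -0.05 to 0.01 for PGD. Without the libraries numbered 1, PGD was 0.01 for DSM against untreated (0.01 with the block) and 0.01 for SM with the block, and RPE 0.04 for SM against DSM (0.04 with the block). Without the block, leaving out 1 library gave -0.06 to 0.81 for ALDH1L2 with SM. Causes were not tested.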
